A study of Mus musculus with 10 samples.

Results

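Fibronectin, the elastic fibre proteins fibrillin-1 and elastin, the small leucine-rich proteoglycans, SPARC, follistatin-like 1 and the thrombospondins 1 and 2 are secreted proteins of the extracellular matrix. The 10 genes described here (Fn1, Fbn1, Eln, Lum, Dcn, Bgn, Sparc, Fstl1, Thbs1 and Thbs2) were taken by symbol and matched to their NCBI Gene numbers in a table of 27179 genes. All 10 had a row, and all 10 were among the 15226 genes kept after removal of genes with low counts. Livers came from male C57BL/6 mice of 2 genotypes, all with floxed Lpcat3 alleles (Lpcat3f/f) and all fed for 12 weeks a diet labelled as producing nonalcoholic steatohepatitis (NASH). The LKO group carried Lpcat3f/f with Albumin-Cre, in which the albumin promoter drives Cre recombinase in hepatocytes, and the control group (con) carried Lpcat3f/f without a labelled Cre. Each group held 5 numbered liver libraries; the labels do not state that each is a separate animal, so each p-value reflects spread among these libraries, which may be partly technical. The albumin promoter is known to act in hepatocytes and not in stellate cells, fibroblasts or macrophages. No age is given for the mice.

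Fibronectin is an adhesive glycoprotein that cells assemble into fibrils through integrins. In liver, hepatocytes secrete it in quantity into plasma, and fibroblasts make a cellular form in injured tissue. The count table holds 1 value per gene, so these forms were not separated. Fibrillin-1 and elastin form microfibrils and the elastic core of fibres. Decorin, biglycan and lumican are proteoglycans that bind collagen fibrils, and in fibrotic liver they are known chiefly as products of stellate cells and portal fibroblasts. SPARC, follistatin-like 1 and the thrombospondins are matricellular proteins, which act on cells and growth factors rather than as structural fibres.

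Levels are given in CPM, the counts of a gene scaled to the effective size of its library. Effective size is the library's total over tested genes multiplied by a factor from TMM, a method of scaling between libraries. This factor was 0.98 to 1.29 in LKO livers, 0.83 to 0.92 in controls 1, 2, 3 and 5, and 1.15 in control 4. Libraries held 26914124 to 46727182 counts. Lpcat3, the deleted gene, had 25.5 to 38.5 CPM in LKO livers, against 94.1 to 124 CPM in control livers (log2 fold change -1.79, edgeR adjusted p = 0.000151). In whole liver, fewer cells of a type and less RNA per cell cannot be told apart. A principal component analysis placed LKO 3 at 82.3 on its leading axis (56.8% of variance), beyond the other LKO livers, and control 4 at 30.2, among the LKO livers and apart from the other controls (-52.7 to -30.1). Results are therefore also given without each of these libraries. Sample titles carry the codes A54 (LKO 1, LKO 2 and control 1), A55 (the other controls) and A67 (the other LKO livers), of unstated meaning, so outside A54 code and genotype cannot be told apart.

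Fn1 was lower in every LKO liver than in any control liver. Its level was 1828, 1505, 1268, 1364 and 1473 CPM in LKO livers 1 to 5, against 2509.6, 2598, 2478, 2184 and 2337 CPM in control livers 1 to 5. The means were 1488 ± 212 CPM in LKO and 2421 ± 163 CPM in control (SD, n = 5 each), a 1.63-fold lower level, with a log2 fold change of -0.70 (SE 0.14; edgeR adjusted p = 0.0766). Among all tested genes, 2.23% were lower in LKO without overlap between the groups. The lowest control, control 4, still had 2184 CPM, above the highest LKO liver, LKO 1, at 1828 CPM.

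Fn1 did not pass the threshold of 0.05 with all 10 libraries. Without LKO 1 it did (log2 fold change -0.79, edgeR adjusted p = 0.0464), where 0.558% of all tested genes were called and 0.331% were called lower. Without control 4 it also did (log2 fold change -0.74, edgeR adjusted p = 0.0112), where 4.75% were. In CPM, LKO 1 was the highest LKO liver in Fn1 and control 4 the lowest control. Leaving out either of them by itself widens the difference on that scale. The rank of control 4 rests on the TMM factor (1.15 in control 4). Relative to total counts control 4 was the highest control in Fn1, with 67744 of 26914124 counts. Control 2 was next, with 73964 of 32725856. Without LKO 3 the log2 fold change of Fn1 stood at -0.66, edgeR adjusted p = 0.093. With any other library left out Fn1 did not pass either, with edgeR adjusted p-values up to 0.218 (without control 3). Within code A54 the difference was -0.60 on the log2 scale, from 2 LKO livers and 1 control.

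The 9 other genes had positive log2 fold changes, as did 49.5% of all tested genes, and 6 of them (Fbn1, Eln, Lum, Fstl1, Thbs1 and Thbs2) had one of at least 1, as did 4.91% of all. They had higher means in LKO, and in none of them were the groups apart. Across all tested genes 1.72% were higher in LKO without overlap, and 3.95% did not overlap in either direction. With all 10 libraries, edgeR's quasi-likelihood test called 0 of the 10 genes at a Benjamini-Hochberg adjusted p under 0.05, against 0.0657% of all tested genes (0.0263% higher and 0.0394% lower). At an unadjusted p under 0.05 there were 9 of the 10, 8 of them higher and Fn1 lower, against 22.3% of all tested genes (12.8% higher and 9.5% lower). Scaling to total counts moved that balance over all genes to 3762 higher and 293 lower, against 1956 higher and 1446 lower here. DESeq2 called 3 of the 10 (Fn1, Dcn and Thbs1), against 7.43% of all genes it tested (4.17% higher and 3.26% lower). Limma voom with quality weights called 7 of the 10 (Fn1, Fbn1, Eln, Dcn, Sparc, Fstl1 and Thbs1), against 16.2% of all (10% higher and 6.11% lower).

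**Figure D1:**
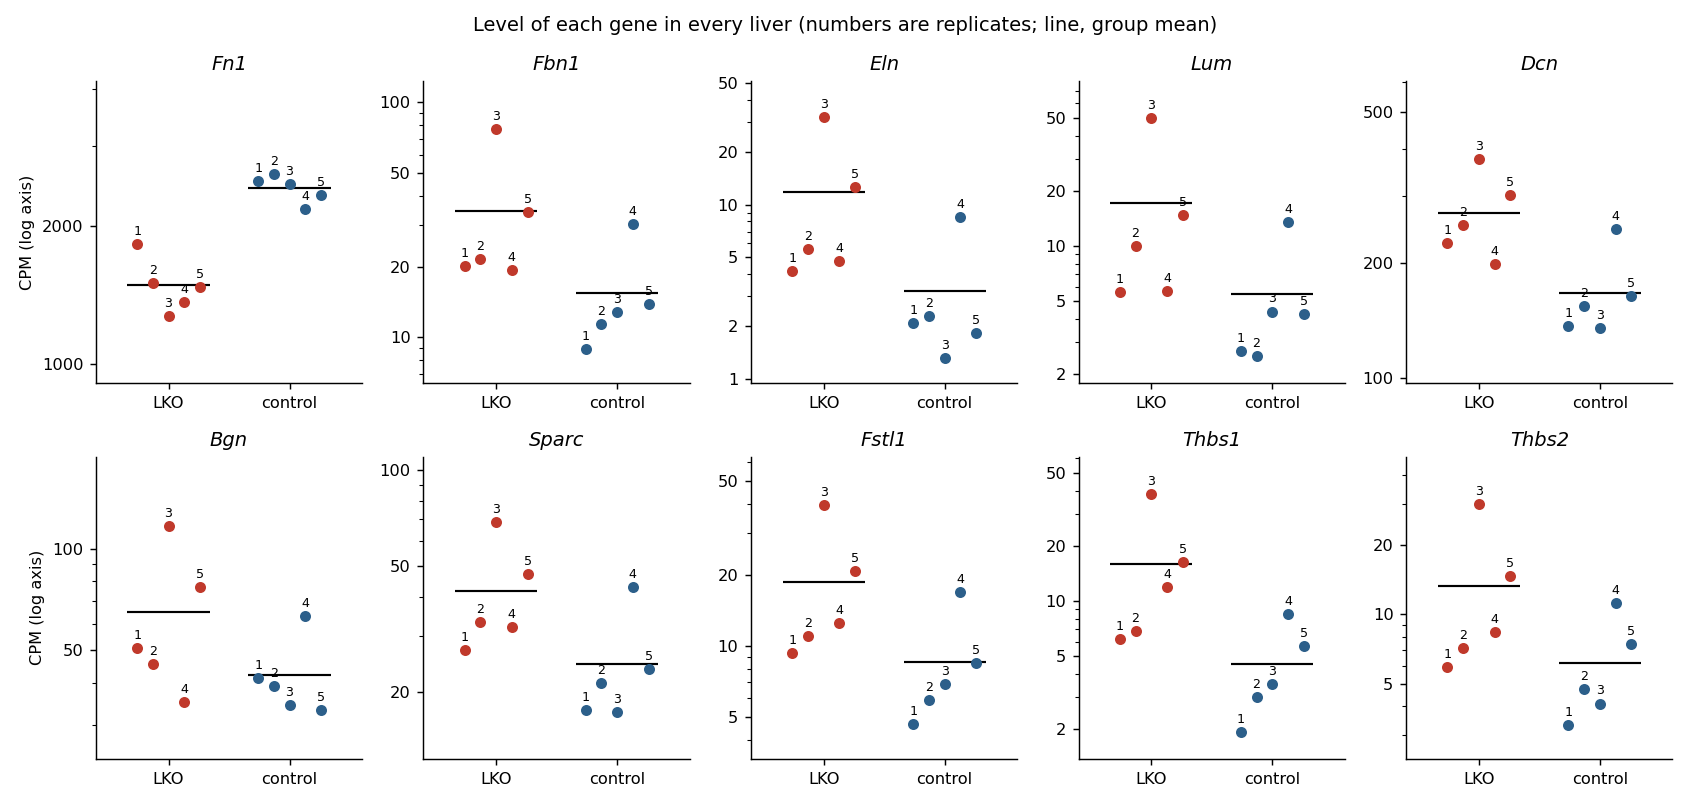
CPM of the 10 genes in each liver, on log axes that differ between panels, with LKO (red) left of control (blue), the replicate number above each point and the group mean as a line. Fn1 is lower in all 5 LKO livers, while in the 9 other panels LKO 3 is the highest LKO liver and control 4 the highest control.

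Fbn1 encodes fibrillin-1, the main protein of microfibrils. It had 20.1, 21.6, 77.1, 19.3 and 34.1 CPM in LKO livers, against 8.95, 11.4, 12.8, 30.5 and 13.8 CPM in control livers. All 5 LKO livers exceeded every control but control 4, which lay between LKO 2 and LKO 5. The fit gave a log2 fold change of 1.15 (SE 0.44; edgeR adjusted p = 0.174).

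Eln encodes tropoelastin, the soluble precursor of elastin. It had 4.15, 5.57, 32.1, 4.71 and 12.6 CPM in LKO livers, against 2.08, 2.28, 1.32, 8.51 and 1.84 CPM in control livers. Its levels spread 7.74-fold within LKO and 6.47-fold within control, and LKO 1, 2 and 4 lay below control 4. The fold change was the highest of the 10 genes, with a log2 fold change of 1.88 (SE 0.68; edgeR adjusted p = 0.157), and its log2 value was 1.07 without LKO 3 and 2.65 without control 4.

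Dcn encodes decorin and had the highest level of the 9 per length of exon, at 46.4 ± 12.02 CPM per kilobase in LKO and 28.6 ± 7.79 in control (SD, n = 5 each). On the same scale Fn1 stood at 127 ± 18.1 in LKO and 207 ± 13.9 in control, and Eln at 1.46 ± 1.46 in LKO and 0.396 ± 0.369 in control. Lengths are the union of annotated exons, so a gene with long rare transcripts is set too low. Dcn itself had 226, 251, 376, 199 and 302 CPM in LKO livers, against 137, 154, 135, 246 and 164 CPM in control livers. LKO 2, 3 and 5 exceeded all controls, and every LKO liver exceeded the controls other than control 4. Dcn varied least among the 9, with a coefficient of variation of 25.9% in LKO and 27.2% in control, and had a log2 fold change of 0.70 (SE 0.21; edgeR adjusted p = 0.124).

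Lum encodes lumican, a keratan sulfate proteoglycan that limits collagen fibril width. It had 5.62, 9.97, 49.7, 5.7 and 14.7 CPM in LKO livers, against 2.68, 2.49, 4.39, 13.5 and 4.24 CPM in control livers. LKO 3 held over 3 times the level of the next LKO liver, so that the SD in LKO (18.6 CPM) exceeded the mean (17.1 CPM). The fit gave a log2 fold change of 1.65 (SE 0.67; edgeR adjusted p = 0.189), and the log2 value without LKO 3 was 0.71.

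Bgn encodes biglycan, the closest relative of decorin, and was the 1 gene of the 10 with an unadjusted p above 0.05. It had 50.8, 45.5, 117, 35.1 and 76.8 CPM in LKO livers, against 41.5, 39.3, 34.5, 63.1 and 33.4 CPM in control livers. LKO 4 lay inside the range of controls 1, 2, 3 and 5, unlike its levels of Fbn1, Eln, Lum and Dcn. The fit gave a log2 fold change of 0.62 (SE 0.31; edgeR adjusted p = 0.252), with a log2 value of 0.29 without LKO 3 and an A54 difference of 0.21.

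Sparc encodes a calcium-binding glycoprotein that binds collagen. It had 27.3, 33.3, 68.9, 32.2 and 47.3 CPM in LKO livers, against 17.6, 21.5, 17.3, 42.8 and 23.8 CPM in control livers, and a log2 fold change of 0.76 (SE 0.30; edgeR adjusted p = 0.179). Fstl1 encodes a secreted glycoprotein with a follistatin-like domain. It had 9.33, 11.01, 39.6, 12.5 and 20.8 CPM in LKO livers, against 4.64, 5.87, 6.88, 16.9 and 8.47 CPM in control livers, and a log2 fold change of 1.12 (SE 0.44; edgeR adjusted p = 0.18). For both genes all 5 LKO livers lay above controls 1, 2, 3 and 5, and LKO 1, 2 and 4 lay below control 4.

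Thbs1 and Thbs2 encode the trimeric thrombospondins, which bind CD36 and CD47, and thrombospondin 1 is known as an activator of latent TGF-beta. Thbs1 had 6.19, 6.83, 38.3, 11.9 and 16.3 CPM in LKO livers, against 1.93, 2.99, 3.51, 8.54 and 5.65 CPM in control livers. The lowest LKO liver, LKO 1, still exceeded controls 1, 2, 3 and 5, and LKO 3, 4 and 5 exceeded all controls. The fit gave a log2 fold change of 1.81 (SE 0.54; edgeR adjusted p = 0.125), and the log2 value was 1.17 without LKO 3. Thbs2 had 5.94, 7.18, 29.96, 8.35 and 14.7 CPM in LKO livers, against 3.32, 4.78, 4.12, 11.2 and 7.47 CPM in control livers. Its groups overlapped more widely, since LKO 1 and LKO 2 lay below control 5, and the fit gave a log2 fold change of 1.10 (SE 0.47; edgeR adjusted p = 0.206).

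The balance between the thrombospondin genes differed between the genotypes without overlap. The log2 ratio of Thbs2 to Thbs1 was -0.059, 0.073, -0.35, -0.51 and -0.14 in LKO livers 1 to 5, against 0.77, 0.67, 0.23, 0.38 and 0.40 in control livers 1 to 5. Control 4 lay with the other controls, which follows from picking a pair whose groups did not overlap, and LKO 3 lay inside the LKO range. The means were -0.20 ± 0.23 in LKO and 0.49 ± 0.22 in control (SD, n = 5 each). This ratio was picked out after its values were seen, from 36 pairs among the 9 genes, of which it was the 1 pair whose groups did not overlap, and it was not tested. The share of all gene pairs without overlap was not computed. Of all tested genes taken singly, 3.95% did not overlap in either direction. A ratio within a library does not move with the scaling between libraries, and it shows unequal change of the pair, not which gene differed.

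**Figure D2:**
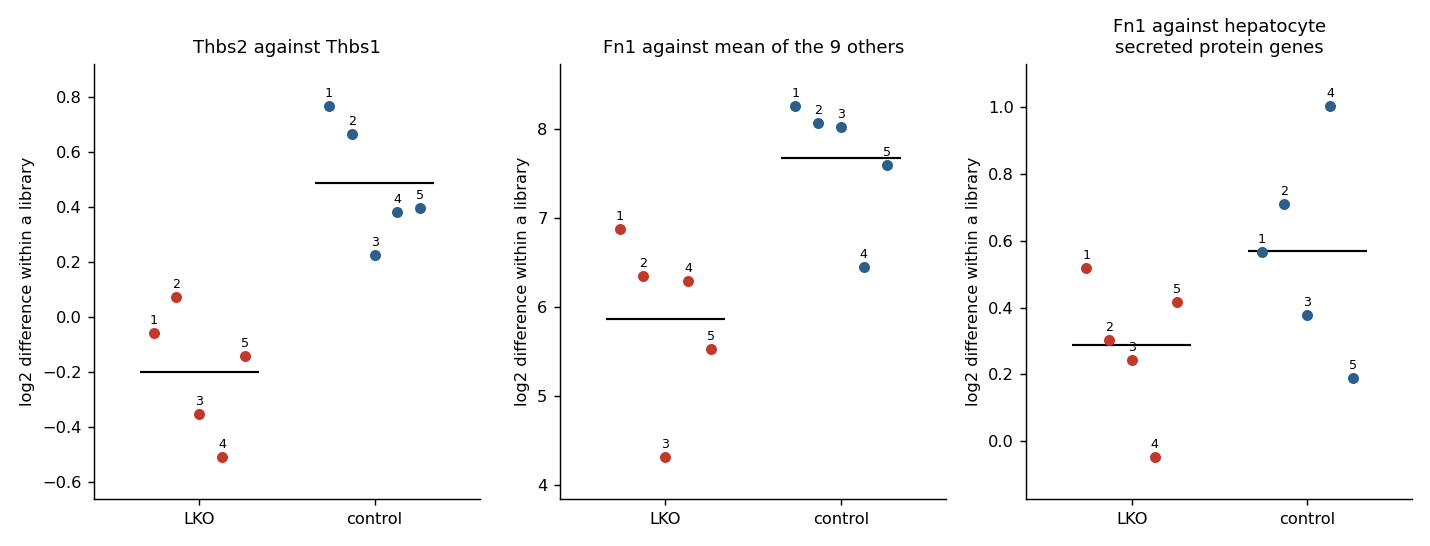
Differences in log2 CPM within each library, LKO (red) left of control (blue), with replicate numbers and group means as lines: Thbs2 minus Thbs1, Fn1 minus the mean of the 9 other genes, and Fn1 minus the mean of 28 genes of proteins secreted by hepatocytes. The groups are apart in the left panel and overlap in the other panels, where control 4 is the lowest control in the middle and the highest on the right.

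**Figure D3:**
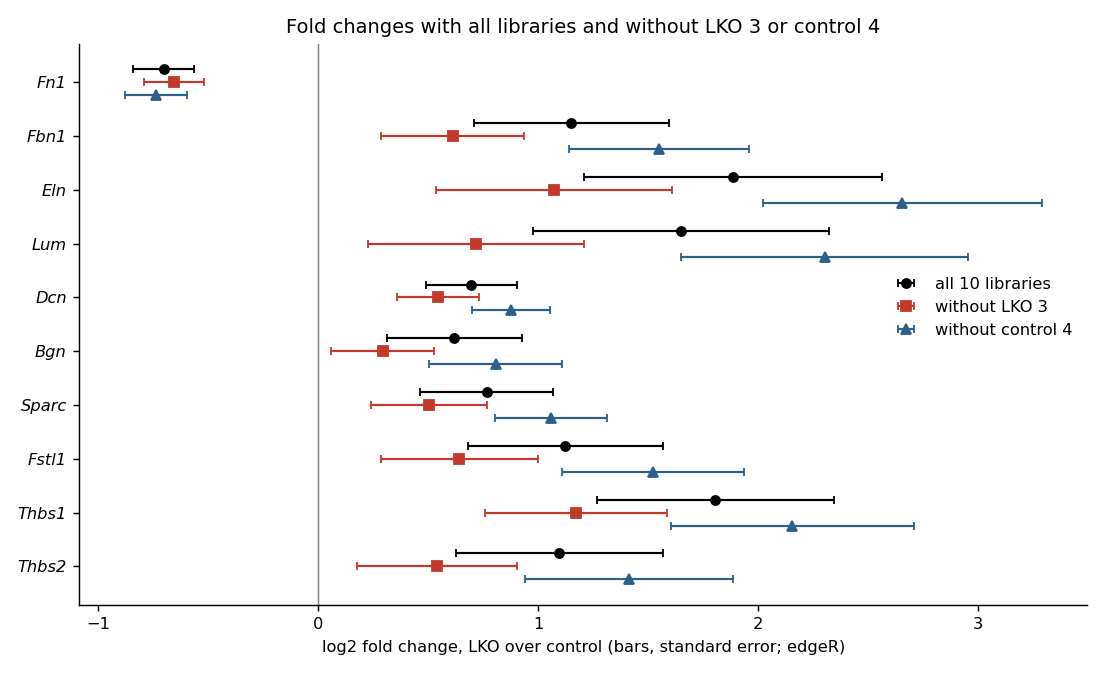
Log2 fold change of LKO over control for each gene with its standard error, with all 10 libraries (black circles), without LKO 3 (red squares) and without control 4 (blue triangles). Fn1 lies between -0.74 and -0.66 in these 3 fits, while Eln lies between 1.07 and 2.65.

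Genes whose profile over the 10 libraries was most like that of Fn1 were sought among 9500 named genes of at least 5 CPM, by the root mean square difference of log2 CPM after centring each gene on its own mean. The closest were Hspb6, a small heat shock protein gene (0.114), Masp1, a serine protease of the lectin complement pathway (0.126), and Plekhb1 (0.128). Fn1 itself deviated from its mean by 0.382 on this scale. Its distance to the closest of the 9 other genes, Dcn, was 0.817.

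Among the 9, Fbn1 and Fstl1 had the closest profiles (0.141 apart, where they deviated by 0.861 and 0.873 from their means), and Thbs2 was next to Fstl1 (0.161). Because these 3 genes tracked each other most closely and have an entry in the RefSeq promoter table (assembly GRCm38.p6, which holds 5 of the 10 genes), the 250 bases before their annotated starts are shown, 5′ to 3′ on the gene's strand: Fbn1 at chr2:125506439-125506688 on the minus strand, Fstl1 at chr16:37776805-37777054 on the plus strand and Thbs2 at chr17:14694263-14694512 on the minus strand. Capitals mark matches, on either strand, to the GC box, the CCAAT box or the TATA box.
Fbn1: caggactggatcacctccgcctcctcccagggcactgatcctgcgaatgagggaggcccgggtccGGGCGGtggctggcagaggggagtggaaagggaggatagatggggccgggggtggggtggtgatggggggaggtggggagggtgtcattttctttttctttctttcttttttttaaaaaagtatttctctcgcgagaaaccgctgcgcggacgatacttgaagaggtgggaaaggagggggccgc
Fstl1: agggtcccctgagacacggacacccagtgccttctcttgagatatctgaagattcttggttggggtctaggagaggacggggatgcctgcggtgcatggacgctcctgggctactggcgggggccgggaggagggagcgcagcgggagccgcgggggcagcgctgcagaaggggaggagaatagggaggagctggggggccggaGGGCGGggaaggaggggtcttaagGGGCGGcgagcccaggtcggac
Thbs2: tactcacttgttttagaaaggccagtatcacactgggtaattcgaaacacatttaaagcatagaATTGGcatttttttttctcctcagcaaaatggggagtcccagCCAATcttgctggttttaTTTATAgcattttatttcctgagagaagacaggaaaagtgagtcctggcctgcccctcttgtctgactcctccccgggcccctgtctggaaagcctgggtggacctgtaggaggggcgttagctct

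The GC box was searched as GGGCGG, and Fbn1 held 1 and Fstl1 2, while 10727 of 32536 promoter windows of this length in the table held at least 1. The CCAAT box was searched by its own letters, and Thbs2 held 2, against 33.8% of all windows with at least 1.

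The TATA box was searched as TATAAA, and Thbs2 held 1 in the reverse direction, against 12.3% of all windows with a match. An AP-1 site, searched as TGANTCA, had no match in these 3 windows and one in 6.73% of all.

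A TEAD site, searched as GGAATG, had no match in these 3 windows and one in 12.6% of all. No match of 1 motif overlapped that of another in the windows shown. These matches describe letters and were not tested against the counts.

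The fold changes of the 9 genes rested on single libraries far more than that of Fn1. Without LKO 3 their log2 fold changes ran from 0.29 (Bgn) to 1.17 (Thbs1), all above 0, with edgeR adjusted p-values from 0.201 (Dcn) to 0.537 (Bgn). Without control 4, edgeR called 7 of the 9 as higher (Fbn1, Eln, Lum, Dcn, Sparc, Fstl1 and Thbs1), against 10.2% of all genes tested, and Fn1 as lower, against 4.75%. Bgn and Thbs2 did not pass there (edgeR adjusted p = 0.0947 and 0.0674). Control 4 is the control nearest to the LKO livers in these genes, so removing it by itself widens the difference. Without both LKO 3 and control 4 the same 7 genes and Fn1 were called, against 15.6% of all genes tested (9.87% higher and 5.73% lower), with log2 fold changes from 0.72 (Dcn) to 1.84 (Eln) among the 7. Within code A54, differences of the 9 ran from 0.21 (Bgn) to 1.72 (Thbs1), and with the code as a covariate none of the 10 passed (lowest edgeR adjusted p = 0.878).

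Fn1 made up 83.7, 79.3, 60.5, 80.6 and 73.2% of the summed CPM of the 10 genes in LKO livers 1 to 5, against 91.96, 91.4, 91.8, 83.2 and 89.9% in control livers 1 to 5. LKO 3 had the lowest share, and control 4 lay just below LKO 1. The 9 other genes together summed to 329 to 829 CPM in LKO and to 219 to 441 CPM in control, where control 4 was the highest and the other controls reached at most 263 CPM. The log2 difference between Fn1 and the mean of the 9 was 5.87 ± 0.99 in LKO and 7.68 ± 0.73 in control (SD, n = 5 each), and control 4 (6.45) fell inside the LKO range. Of the 9 pairs of Fn1 with another gene, 1 had groups that did not overlap, Fn1 with Dcn. The groups did not overlap in Fn1 by itself, and the share of all gene pairs without overlap was not computed.

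To set Fn1 beside genes of hepatocytes, 28 genes of plasma proteins known to be made there were taken as a list. All 28 were tested and all 28 had negative log2 fold changes, with a median of -0.45 against -0.0036 over all genes, and edgeR called 0 (16 at an unadjusted p under 0.05, all lower, against 9.5% of all genes). DESeq2 called 4 of them and limma voom 17, all lower, against 3.26% and 6.11% of all genes. Ambp, the precursor of alpha-1-microglobulin, had 1095 ± 103 CPM in LKO and 1604 ± 341 CPM in control (log2 -0.55); values of listed genes are means ± SD (n = 5 each). Vtn, the adhesive plasma protein vitronectin, had 1238 ± 74.9 CPM in LKO and 1803 ± 423 CPM in control (log2 -0.54). Itih4, an inter-alpha-trypsin inhibitor heavy chain, had 1043 ± 137 CPM in LKO and 2066 ± 1143 CPM in control (log2 -0.99), and C9, of the membrane attack complex of complement, had 367 ± 91.4 CPM in LKO and 637 ± 187 CPM in control (log2 -0.80). Their edgeR adjusted p-values ran from 0.124 to 0.137. With scaling to total counts, which moved the median of all genes to 0.235, the list median was -0.19 and Fn1 stood at -0.47.

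Relative to the mean of the controls, the list mean was -0.35, -0.42, -0.60, -0.21 and -0.56 on the log2 scale in LKO livers, against 0.058, -0.037, 0.23, -0.58 and 0.33 in control livers. Control 4 lay at the low end with LKO 3 and LKO 5. Fn1 on the same scale was at -0.40, -0.68, -0.93, -0.83 and -0.71 in LKO livers, against 0.054, 0.10, 0.036, -0.15 and -0.049 in control livers, so that control 4 lay near the other controls. Fn1 minus the list mean was 0.29 ± 0.21 in LKO and 0.57 ± 0.31 in control (SD, n = 5 each), with overlapping groups. Of the 116 genes with a mean of at least 1000 CPM, 103 had a negative log2 fold change, as did 7688 of all 15226 tested genes. Of the 116, 4, Fn1 included, were lower in LKO without overlap, against 2.23% of all tested genes.

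Markers of stellate cells, fibroblasts and myofibroblasts were set beside the 9 other genes. Of 20 listed, 18 were tested, 17 had a positive log2 fold change and edgeR called 0 (8 at an unadjusted p under 0.05, all higher, against 12.8% of all genes). DESeq2 called 2 and limma voom 7, all higher, against 4.17% and 10% of all genes. The median was 0.61, and 1.11 without control 4. Des, the intermediate filament of stellate cells, had 7.14 ± 1.44 CPM in LKO and 4.74 ± 1.1 CPM in control (log2 0.59). Lrat, which esterifies retinol in quiescent stellate cells, had 59.4 ± 7.61 CPM in LKO and 41.8 ± 11.7 CPM in control (log2 0.51). Pdgfrb and Pdgfra, the platelet-derived growth factor receptors, had 26.1 ± 10.9 CPM in LKO and 14.6 ± 5.85 CPM in control (log2 0.84) and 34.8 ± 30.6 CPM in LKO and 13.8 ± 3.81 CPM in control (log2 1.33). Adjusted p-values of these 4, the lowest of the list, ran from 0.131 to 0.16. Among the other markers, log2 fold changes ran from -0.35 (Ecm1, the 1 negative gene) to 1.56 (Mgp). Reln, with the highest mean level of the list, had 191 ± 36.4 CPM in LKO and 180 ± 38.4 CPM in control (log2 0.088). The summed level of the list was 497 to 1103 CPM in LKO and 367 to 795 CPM in control, with LKO 3 and control 4 the highest of their groups.

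The 9 genes stood off this list to different degrees. Minus the list mean, Sparc differed by 0.063 and Dcn by -0.0075 on the log2 scale between LKO and control, and Bgn by -0.18. Thbs2 differed by 0.26, Fstl1 by 0.35 and Fbn1 by 0.36. Lum, Thbs1 and Eln lay further above it, by 0.71, 0.95 and 1.03. In these 3 genes the groups overlapped and LKO 3 was the highest LKO liver (0.86, 0.48 and 0.23 minus the list mean). The differences from the list were not computed without LKO 3. In Sparc the spread after this step was small, with an SD of 0.11 in LKO and 0.067 in control. The SD of Lum was 0.84 in LKO and 0.53 in control, that of Thbs1 0.66 and 0.45, and that of Eln 0.77 and 0.57.

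**Figure D4:**
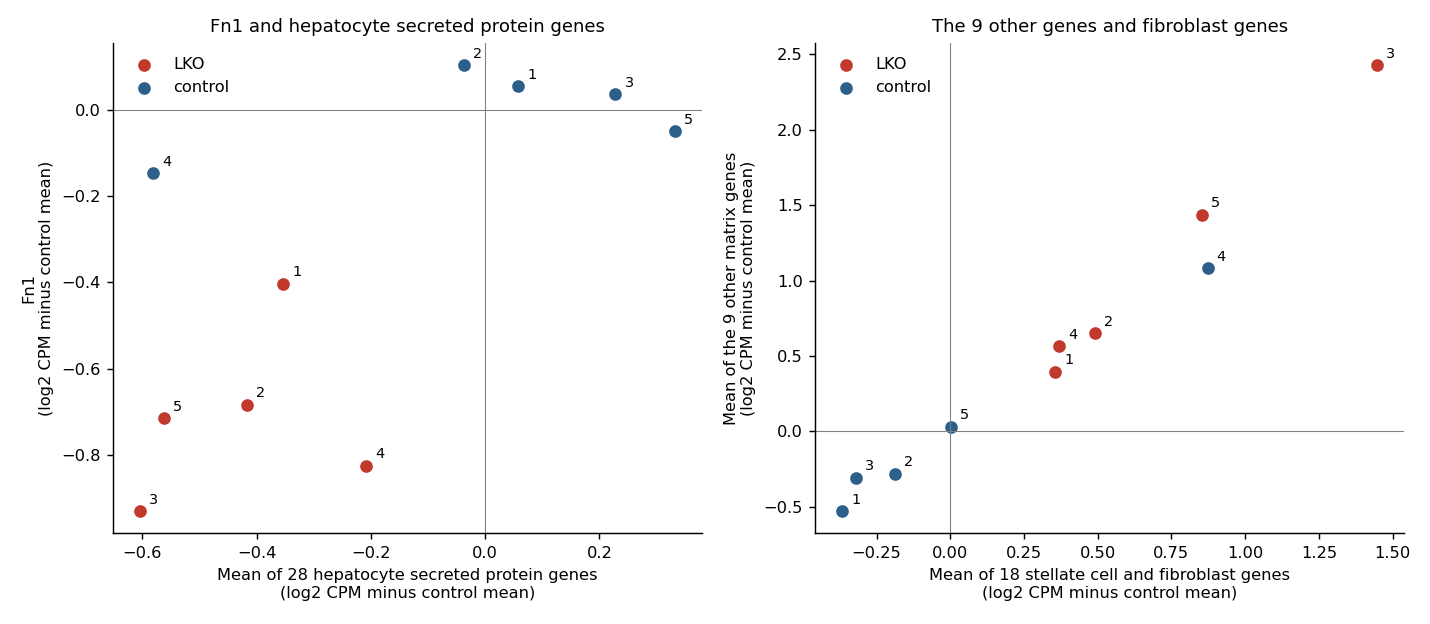
Mean log2 CPM of each liver relative to the control mean, LKO in red and control in blue with replicate numbers: Fn1 against the mean of 28 genes of hepatocyte secreted proteins (left), and the mean of the 9 other matrix genes against the mean of 18 stellate cell and fibroblast genes (right). Control 4 lies low on the left panel's horizontal axis but near the other controls on its vertical axis, and lies among the LKO livers on both axes of the right panel.

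Markers of other cell types were read in the same libraries. Macrophage genes had a median log2 fold change of 0.88 (0.59 without LKO 3 and 0.54 with the title code as a covariate), 10 of 12 positive, and summed to 379.5 to 653 CPM in LKO and 227 to 459.9 CPM in control. Cholangiocyte genes had a median of 1.44, 6 of 7 positive. It was 0.80 without LKO 3, 0.86 with limma voom, 0.43 among genes of at least 1 CPM in 5 libraries and 0.019 with the title code as a covariate. They summed to 24.4 to 74.3 CPM in LKO and 18.2 to 40.04 CPM in control. LKO 3 and control 4 were the highest of their groups in both sums. Endothelial genes had a median of 0.29 (0.56 with total counts and 0.18 with the title code), 11 of 11 positive, and summed to 490.5 to 724 CPM in LKO and 474 to 566 CPM in control, with LKO 3 the lowest LKO liver.

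Mesothelial genes (6 of 6 tested, 4 positive, median 0.15) summed to 3.41 to 16.7 CPM in LKO and 4.08 to 9.75 CPM in control. Platelets store thrombospondin 1, and their markers were low, with 5 of 9 tested (4 positive, median 0.16) and a sum of 5.03 to 6.03 CPM in LKO and 4.45 to 5.47 CPM in control. No listed marker had 0 counts in all 10 libraries, and edgeR called 0 genes of these 5 lists. At an unadjusted p under 0.05 it had 5 macrophage, 4 cholangiocyte, 5 endothelial, 1 mesothelial and 1 platelet gene, all higher. DESeq2 called 3 macrophage, 3 endothelial and 1 platelet gene, and limma voom 8, 5 and 1, all higher, while both called 0 cholangiocyte and mesothelial genes. Of all genes, 12.8% were higher at an unadjusted p under 0.05 in edgeR, 4.17% were called higher by DESeq2 and 10% by limma voom. With 1 library left out, the mesothelial median ranged from -0.089 to 0.39 (without LKO 5 and without LKO 4) and the platelet median from 0.021 to 0.27 (without control 4 and without control 5). The part of these cell types in the levels of the 9 genes was not tested.

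The relatives of the 9 genes were described from lists of the same families. Of 17 other elastic fibre genes, 15 were tested and 15 had a positive log2 fold change (median 0.84), with 0 called by edgeR, 10 at an unadjusted p under 0.05, 2 called by DESeq2 and 4 by limma voom, all higher. The shares of all genes called higher in these ways were 12.8%, 4.17% and 10%, and they apply to each list below, with 9.5%, 3.26% and 6.11% lower. Emilin1 and Emilin2, glycoproteins at the interface of elastin and microfibrils, had 30.9 ± 10.5 CPM in LKO and 18.1 ± 4.14 CPM in control (log2 0.77) and 6.85 ± 1.09 CPM in LKO and 4.5 ± 1.05 CPM in control (log2 0.61). Fbln5, a fibulin needed for elastic fibre assembly, had 7.12 ± 3.21 CPM in LKO and 3.98 ± 1.29 CPM in control (log2 0.84), and Ltbp2, which binds fibrillin-1, had 5.4 ± 7.03 CPM in LKO and 1.38 ± 0.917 CPM in control (log2 1.97). Without LKO 3 the median was 0.53.

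Other small leucine-rich proteoglycans did not show 1 direction. Of 11, 8 were tested, 5 were positive and 3 negative, with a median of 0.32 and 0 called by edgeR, DESeq2 or limma voom (1 at an unadjusted edgeR p under 0.05); the DESeq2 median was -0.05, and the edgeR median without LKO 3 was 0.11. Ogn (osteoglycin) had 3.55 ± 1.39 CPM in LKO and 2.2 ± 0.628 CPM in control (log2 0.69), Fmod (fibromodulin) 2.25 ± 1.54 CPM in LKO and 1.28 ± 0.402 CPM in control (log2 0.82), Aspn (asporin) 0.628 ± 0.586 CPM in LKO and 0.298 ± 0.126 CPM in control (log2 1.07) and Ecm2 2.6 ± 1.23 CPM in LKO and 1.87 ± 0.333 CPM in control (log2 0.47). The fifth positive gene, Prelp, had the highest level of the 8, at 80.7 ± 23.2 CPM in LKO and 71.6 ± 15.8 CPM in control (log2 0.17). The 3 negative genes were Podn (log2 -0.25), Omd (log2 -0.083) and Chad (log2 -0.18).

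Large and surface proteoglycans also lay on both sides of 0, with 7 of 11 positive, a median of 0.26 and 0 called by edgeR (5 at an unadjusted p under 0.05, 3 of them lower). DESeq2 called 3, all lower, and limma voom 4, 3 of them lower. The median was 0.073 without LKO 3. Gpc4, a glypican, had 15.5 ± 1.28 CPM in LKO and 24.2 ± 3.25 CPM in control (log2 -0.65), with no overlap between the groups (edgeR adjusted p = 0.0514). Across all tested genes 2.23% were lower in LKO without overlap. The syndecans Sdc2 and Sdc4 had 92.1 ± 9.47 CPM in LKO and 135 ± 23.9 CPM in control (log2 -0.55) and 222 ± 23.2 CPM in LKO and 333 ± 60.9 CPM in control (log2 -0.58). Hspg2, perlecan of basement membranes, had 93.6 ± 12.6 CPM in LKO and 67.96 ± 15.3 CPM in control (log2 0.46).

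Other matricellular genes had a median of 0.74, with 10 of 15 tested, 8 positive and 0 called by edgeR (5 at an unadjusted p under 0.05, 4 of them higher). The 1 gene DESeq2 called was lower, and of 3 called by limma voom 2 were higher and 1 lower. Without LKO 3 the median was 0.35. Tnc (tenascin-C) had 10.005 ± 4.72 CPM in LKO and 4.56 ± 3.07 CPM in control (log2 1.13), Postn (periostin) 25.3 ± 5.17 CPM in LKO and 17.7 ± 5.64 CPM in control (log2 0.51) and Sparcl1, a relative of Sparc, 33.8 ± 40.1 CPM in LKO and 10.02 ± 6.6 CPM in control (log2 1.75). Smoc1, another relative of Sparc, lay on the other side with 56.5 ± 3.55 CPM in LKO and 68.8 ± 6.996 CPM in control (log2 -0.28).

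Of 16 receptor genes for fibronectin and thrombospondin, 15 were tested, 12 were positive and edgeR called 0 (8 at an unadjusted p under 0.05, 7 of them higher). DESeq2 called 4, all higher, and limma voom 5, 4 of them higher. The median was 0.31, 0.20 without LKO 3 and 0.47 without control 4. Cd36, which binds thrombospondin 1 and also takes up fatty acids, had 247 ± 38.6 CPM in LKO and 151 ± 38.9 CPM in control (log2 0.71), with no overlap between the groups. Across all tested genes 1.72% were higher in LKO without overlap, a share that also applies to Tgfb3 below. Itga4, Itga8 and Itga9, integrin alpha chains that pair to bind fibronectin or tenascin, had 27.97 ± 5.17 CPM in LKO and 18.4 ± 5.92 CPM in control (log2 0.60), 45.7 ± 35.1 CPM in LKO and 20.01 ± 6.34 CPM in control (log2 1.19) and 61.6 ± 6.29 CPM in LKO and 45.5 ± 5.92 CPM in control (log2 0.44). Of 10 genes taken as induced by TGF-beta or encoding its ligands, 9 were positive and edgeR called 0 (5 at an unadjusted p under 0.05; DESeq2 called 1 and limma voom 3, all higher), with a median of 0.53 and of 0.35 without LKO 3. Tgfb1 and Tgfb3, ligand genes, had 9.96 ± 0.879 CPM in LKO and 7.28 ± 2.07 CPM in control (log2 0.45) and 3.08 ± 2.42 CPM in LKO and 1.003 ± 0.384 CPM in control (log2 1.61), and Tgfb3 was higher in every LKO liver than in any control. Tgfbi had 59.01 ± 13.3 CPM in LKO and 43.4 ± 8.14 CPM in control (log2 0.44), and Ltbp2 is given above.

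**Figure D5:**
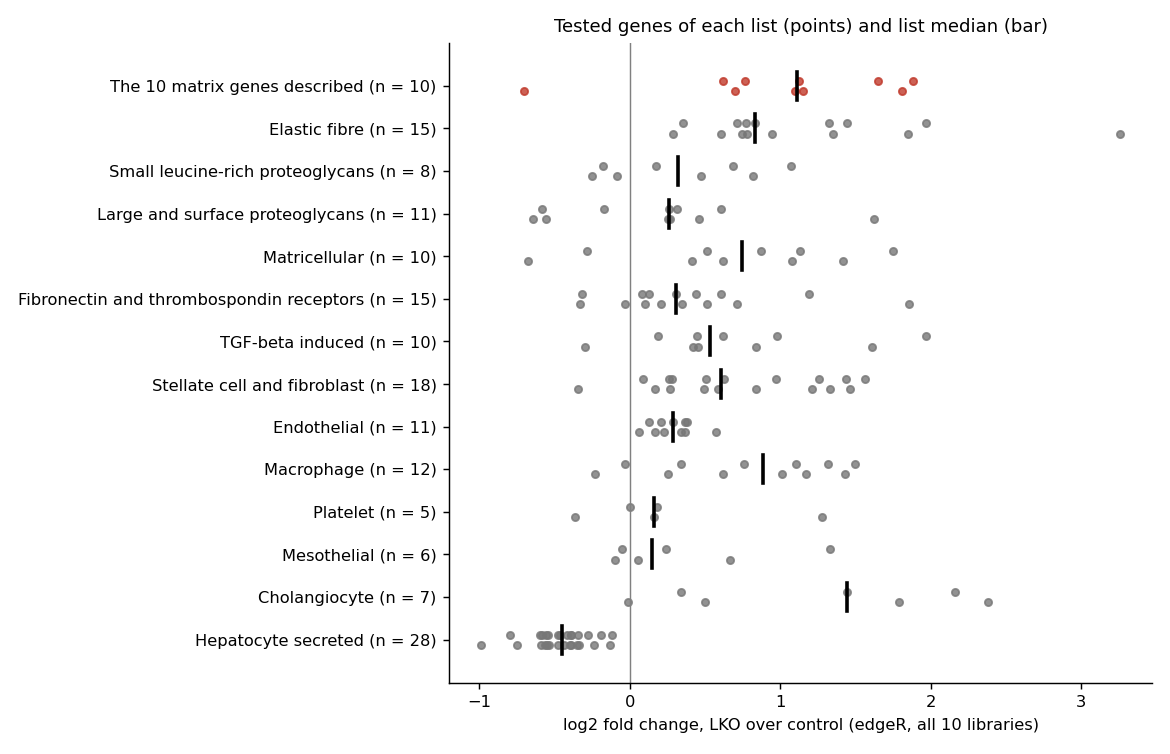
Log2 fold change of LKO over control for every tested gene of each list (points) with the list median (bar). Of the 10 genes described, shown in red, Fn1 lies on the negative side with all 28 hepatocyte genes, and the others lie on the positive side with 15 of 15 elastic fibre genes.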

How the data were processed

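Livers were TRIzol-extracted and depleted of ribosomal RNA, and stranded libraries were read from 1 end on 1 lane, per the labels' protocols. The authors deposited raw counts per gene, keyed by NCBI Gene number. Reads were demultiplexed with bcl2fastq 2.20 and the build was GRCm39, per the submitters' processing notes, which also name DESeq2; no aligner, counter or strand setting is named in the sources used. Symbols came from a RefSeq table (GRCm38.p6, names and promoters only) and matched 25275 of 27179 genes; genes without a symbol held 0.693% of counts.

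Counts were filtered with filterByExpr, scaled by TMM and fitted with edgeR 4.0.16 in R 4.3.3 (quasi-likelihood, legacy option, two-sided) on all 10 libraries with genotype as the only term. Benjamini-Hochberg adjustment covered 15226 genes and calls needed an adjusted p under 0.05; values shown per library are CPM, and ratios used log2 CPM with a prior count of 2. Exon lengths came from GENCODE vM21. DESeq2 1.42.0 and limma 3.58.1 voom were alternatives, with other scalings and filters, a replicate block, the title code and each library left out. Library totals ran from 26914124 to 46727182 counts, and a count of 3 corresponds to 0.0698 to 0.113 CPM, counting error only. The scripts were tested on simulated counts.

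The 10 genes and all lists were chosen with earlier results of these data known. All 10 are named; of each other list, up to 4 genes with the lowest unadjusted p are named, and for each of the 10 the 3 genes of closest profile, of which 1 is not reported here. A pair ratio and the macrophage genes Clec4f and Timd4 stand outside this rule. So do Prelp, Podn, Omd and Chad of the small leucine-rich proteoglycans, and Ecm1, Mgp and Reln of the stellate cell and fibroblast list. All of these were picked after their values were seen. Lists of stellate cell and fibroblast, hepatocyte, endothelial, macrophage, platelet, mesothelial and cholangiocyte markers were described by counts, medians and sums, with no set test.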

Additional observations from a re-analysis of the deposited data

Results flagged for a closer look

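In groups of 5 livers, a value was picked out where its gap to the nearest liver, divided by the range of the group, exceeded 0.71 (Dixon's critical value). Of 22 groups of values examined, 8 held such a value. The critical value gives about 1 in 20 by chance only for normally distributed values. The gene levels were examined in CPM and not on the log2 scale, so the 8 are not set against that rate. The genes share their libraries, so these are not 8 separate events.

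Among LKO livers, LKO 3 stood apart in Fbn1 (77.06 CPM) and in Lum (49.7 CPM). Among controls, control 4 stood apart in 6 genes: Fbn1 (30.53 CPM), Eln (8.511 CPM), Lum (13.48 CPM), Dcn (245.7 CPM), Bgn (63.09 CPM) and Sparc (42.81 CPM). Control 4 was also the highest control in the summed fibroblast markers (795 CPM) and macrophage markers (459.9 CPM). No Fn1 value was picked out in either group.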

How the results depend on the processing

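Over 22 alternatives, the 10 genes gave 220 log2 fold changes, all of the same direction as with all libraries under edgeR, and 27 passed the adjusted threshold. The number of the 10 genes called was 3 with DESeq2, 7 with limma voom, and 8 without both control 4 and LKO 3; leaving out 1 library gave 0 to 8, with 1 without LKO 1 and 8 without control 4. Across all genes, edgeR called 10, against 31 with no filter, 20 with at least 1 CPM in 5 libraries, 1143 with DESeq2, 2460 with limma voom, 2 with the replicate block, 0 with the title code (760 at an unadjusted p under 0.05), 2 to 2296 with 1 library left out and 2363 without both libraries. Scaling to total counts turned the split of calls from 4 higher and 6 lower to 9 higher and 3 lower. Replicate numbers did not pair the samples (correlations of deviations from -0.399 to 0.419, with 1 of 5 LKO libraries closest to the control of its own number), and with the replicate block 0 of the 10 genes were called (lowest adjusted p = 0.166). Fn1 minus the mean of the 9 others ranged from -2.11 to -1.42 between LKO and control with 1 library left out. Of 308 list medians, 300 moved by less than the spread between replicates, taken as the larger group SD of the list mean. That SD includes LKO 3 and control 4 and is a wide limit. For the 10 genes it was 0.75, so a move of their median from 1.11 to 0.58 without LKO 3 fell within it. The cause of these shifts was not tested. Medians near 0 took the other sign in some settings: other small leucine-rich proteoglycans with no filter (-0.038) and DESeq2 (-0.05), large proteoglycans with the title code (-0.034), mesothelial genes with the title code (-0.21) and with 1 library left out (down to -0.089), and platelet genes with limma voom (-0.017) and without both libraries (-0.068). In simulated libraries edgeR found 65 of the 100 genes given a 2-fold change (DESeq2 80, limma voom 66), and it also called 12 genes given no change (DESeq2 43, limma voom 11). Each gene was drawn independently there, with no library set apart as LKO 3 and control 4 are, so these rates cannot be carried over to the livers.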

Other observations

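Of the endothelial genes, Pecam1, a junction protein, had 37.2 ± 4.24 CPM in LKO and 28.9 ± 1.58 CPM in control (log2 0.37), and Cdh5, VE-cadherin, had 57.95 ± 6.72 CPM in LKO and 45.8 ± 3.26 CPM in control (log2 0.34). Values are means ± SD (n = 5 each). Both were higher in every LKO liver than in any control liver, as were 1.72% of all tested genes. The sinusoidal genes Stab1 and Oit3 had 77.05 ± 7.3 CPM in LKO and 59.1 ± 9.06 CPM in control (log2 0.38) and 33.6 ± 7.09 CPM in LKO and 26.03 ± 2.9 CPM in control (log2 0.37), with overlap. Of the macrophage genes, Lyz2, lysozyme, had 118 ± 39.3 CPM in LKO and 47.5 ± 25.6 CPM in control (log2 1.32). Adgre1, which encodes F4/80, had 24.1 ± 4.58 CPM in LKO and 15.7 ± 3.6 CPM in control (log2 0.62), and Cd68 had 33.3 ± 6.91 CPM in LKO and 19.7 ± 7.73 CPM in control (log2 0.76). Cd9, a tetraspanin, had 50.1 ± 31.2 CPM in LKO and 22.2 ± 14.01 CPM in control (log2 1.17). None of these 8 genes passed the adjusted threshold in edgeR (adjusted p from 0.0977 to 0.181), and all 8 had an unadjusted p under 0.05. Of the 12 macrophage genes, the 2 with a negative log2 fold change were Clec4f (-0.031) and Timd4 (-0.23).

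Cholangiocyte keratins Krt7 and Krt19 had 1.67 ± 1.47 CPM in LKO and 0.614 ± 0.322 CPM in control (log2 1.44) and 2.24 ± 2.48 CPM in LKO and 0.649 ± 0.345 CPM in control (log2 1.79). Epcam had 6.38 ± 7.66 CPM in LKO and 1.42 ± 1.09 CPM in control (log2 2.16), and the chloride channel gene Cftr had 2.11 ± 2.46 CPM in LKO and 0.395 ± 0.333 CPM in control (log2 2.38). All 4 had an SD near or above the mean in LKO. Of the mesothelial genes, Wt1 had 2.45 ± 1.89 CPM in LKO and 0.964 ± 0.36 CPM in control (log2 1.33) and Gpm6a 4.58 ± 2.96 CPM in LKO and 2.88 ± 1.1 CPM in control (log2 0.66), while Upk3b had 1.42 ± 0.726 CPM in LKO and 1.21 ± 0.365 CPM in control (log2 0.24) and Upk1b 0.491 ± 0.319 CPM in LKO and 0.523 ± 0.163 CPM in control (log2 -0.10). Of the platelet genes, Pf4 had 0.7 ± 0.106 CPM in LKO and 0.284 ± 0.187 CPM in control (log2 1.28), higher in every LKO liver than in any control liver, at a level below 1 CPM. Across all tested genes 1.72% were higher in LKO without overlap. Ppbp had 0.696 ± 0.166 CPM in LKO and 0.613 ± 0.198 CPM in control (log2 0.18), Itga2b 2.37 ± 0.394 CPM in LKO and 2.11 ± 0.5 CPM in control (log2 0.16) and Gp5 0.321 ± 0.224 CPM in LKO and 0.411 ± 0.127 CPM in control (log2 -0.36). None of these 12 passed the adjusted threshold in edgeR (adjusted p from 0.143 to 0.914).

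Profiles over the 10 libraries were compared for the other genes as for Fn1. Closest to Fbn1 were Ptgfrn (0.129), Olfml3 (0.166) and Adamts2 (0.177), in root mean square log2 difference. Closest to Thbs2 were the collagen gene Col6a1 (0.159), Adamts9 (0.186) and Olfml3 (0.201). Fstl1 had Cd9 (0.149), Olfml3 (0.15) and Ccdc80 (0.172), and Thbs1 had the collagen gene Col5a2 (0.203), Cd9 (0.321) and Ccdc80 (0.361). Cd9 is also in the macrophage list. Eln had Rragd (0.327), Col6a3 (0.335) and Sox4 (0.355), and Lum had the gelatinase gene Mmp2 (0.321), Col6a3 (0.323) and Myo5a (0.327). Dcn had Ano6 (0.109), Rcn3 (0.121) and App (0.125). Bgn had Igsf10 (0.149) and the laminin gene Lamb1 (0.191), and Sparc had Cxcl16 (0.108), Ahnak (0.111) and Flna (0.116). All profiles share the same 10 libraries and carry no test.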
